A study of Mus musculus with 209 samples.

Results

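The comparison described here is the response of peritoneal mast cells to interleukin 1 beta (IL1b) 2 h after an intravenous injection, measured by RNA sequencing across all genes. Its members are the 2 libraries labelled MC from mice given IL1b and the 4 libraries labelled MC from mice given PBS in the same 2 h screen, so 6 of the 209 libraries of the series. The mice were C57BL/6 animals of 5 to 8 weeks, and each received 5 µg of IL1b in 120 µL of PBS, or 120 µL of PBS alone. At 2 h, 1000 cells were sorted in 2 rounds from the peritoneal cavity straight into lysis buffer. The same statistical fit held 5 further MC libraries, 2 from mice given 5 µg of interleukin 6 (IL6) and 3 from mice given 5 µg of tumour necrosis factor (TNFa). The peritoneal macrophages of the same screen (MFpc, 5 PBS and 3 IL1b libraries) were the other cell type sorted from that cavity with which the response was compared. The labels do not say whether the libraries of a group came from different mice, so the p-values measure only the spread between libraries, which may be technical.

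Mast cells are tissue-resident cells filled with granules of proteases, heparin, histamine and serotonin, and they carry the high-affinity receptor for IgE and the growth factor receptor Kit. In rodents a large part of the peritoneal mast cells are of the connective tissue type, which makes the chymases and tryptases of the Cma1, Mcpt4 and Tpsb2 genes. IL1b signals through a receptor of Il1r1 and the accessory chain Il1rap to the adaptor Myd88 and on to NF-kB and the MAP kinases, while the related receptor Il1rl1 (ST2) serves interleukin 33. A cytokine given into the blood also acts on many other cells of the animal, which release further mediators such as interleukin 6 and, through the adrenal gland, glucocorticoid.

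The libraries carried the markers of the labelled cell type. The 11 mast cell markers, Cma1, Cpa3, Tpsb2 and Kit among them, summed to between 191340 and 203350 counts per 1000000 counts of the library (CPM) in the PBS libraries and to 203610 and 215150 CPM with IL1b. The macrophage markers Csf1r, C1qa and C1qb were at 0 in all 6 libraries. The 11 macrophage markers summed to 1733 to 2206 CPM with PBS and to 1569 and 1923 CPM with IL1b, nearly all of it Apoe. Summed T cell markers were at most 1.83 CPM and neutrophil markers at most 3.88 CPM in these 6 libraries, and S100a8, S100a9 and Ly6g were at 0. Of the mast cell markers, Hdc, Tpsab1 and Fcer1a were called for IL1b, and no tested marker of the 12 other cell types was. The monocyte, neutrophil, T cell, erythroid and mesothelial lists had no tested marker, so the calls say nothing of those types. The other lists had only 1 to 4 tested markers each. In such bulk libraries, fewer cells of a type and less RNA per cell cannot be told apart. Basophil markers, several of which mast cells share (Prss34, Cd200r3), summed to 4086 to 5922 CPM with PBS and to 4690 and 5374 CPM with IL1b. The 6 libraries held between 1184553 and 2364695 counts on genes, against 1094567 to 9291121 over the series. One of the 2 IL6 libraries, number 3, stood apart: its T cell markers summed to 32.6 CPM, against 0 in IL6 library 1.

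The transcripts of Il1r1 and Il1r2, the receptors that bind the injected cytokine, were scarce in these cells. Il1r1, the signalling receptor, had 1, 13, 4 and 0 counts in the 4 PBS libraries and 0 and 1 counts in the IL1b libraries. In the fit with macrophages, its mean was 2.28 CPM with PBS and 0.23 CPM with IL1b in mast cells. In macrophages it was 1.39 and 0.93 CPM, so the low level was not particular to mast cells. Il1r2, the decoy receptor, had 1 count in PBS library 4 and none in the other MC libraries. Il1rap, the chain shared by the receptors for interleukins 1 and 33, had 51, 30.2, 29 and 21.3 CPM with PBS and 19 and 33.6 CPM with IL1b (log2 fold change -0.27 ± 0.39, adjusted p = 0.867). One IL1b value lay just below the PBS range and the other inside it, and the difference did not pass the test. Il1rl1, the receptor chain for interleukin 33, had 2753, 2844, 2841 and 3006 CPM with PBS and 4341 and 3839 CPM with IL1b and rose (log2 fold change 0.52 ± 0.10, adjusted p = 0.00294). Both IL1b libraries lay above all 4 PBS libraries. The call was lost without IL1b library 1 (adjusted p = 0.159). Of the 25 members of the IL1 receptor pathway list, 20 were tested. Il1rl1 was the only one called, where 1.77% of all genes tested rose and 0.425% fell. The median log2 fold change of the list was -0.01.

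With IL1b, 232 of 10591 genes tested (2.19%) differed from PBS at an adjusted p under 0.05 (edgeR quasi-likelihood test, Benjamini-Hochberg adjustment). Of these, 187 (1.77%) were raised and 45 (0.425%) lowered, while the median log2 fold change over all genes tested was -0.02. The raised genes had a median log2 fold change of 1.16, and 112 of them were over 2-fold and 34 over 4-fold. The lowered genes had a median of -1.25, with 31 over 2-fold and 7 over 4-fold. With library totals alone as the scaling, the split was 141 raised and 70 lowered, and the median of all genes moved to -0.10; with DESeq2 the split was 221 raised and 100 lowered. The libraries of the 2 groups did not overlap in any of the 232 genes, against 2262 (21.4%) of all genes tested, so a gap between the groups in a called gene is given below as a description of its values and not as support for its call. The precision rests on 2 IL1b libraries: 111 genes were called without IL1b library 1 and 73 without IL1b library 3.

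**Figure D1:**
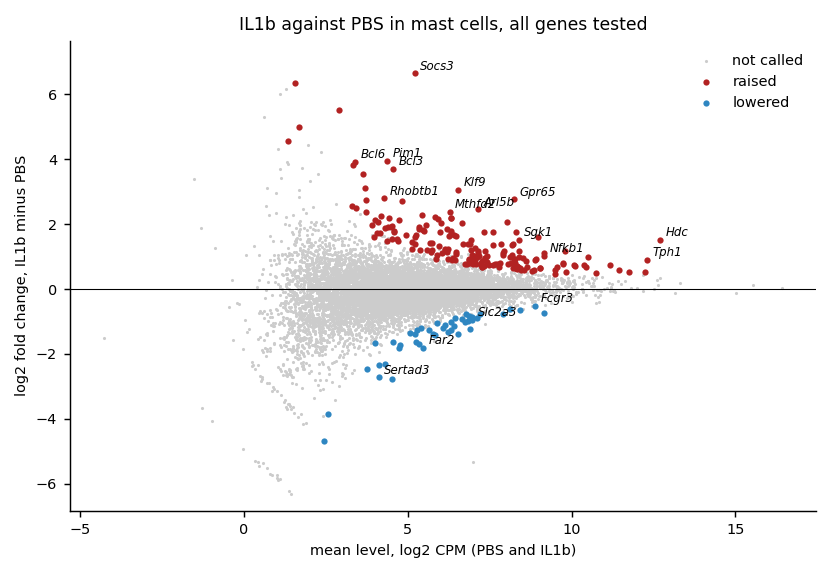
Mean level against response for every gene tested in mast cells. The x axis is the log2 of the mean CPM over the PBS and IL1b group means, the y axis the log2 fold change of IL1b against PBS, and each point is 1 gene; red points are the 187 raised genes and blue points the 45 lowered genes. Socs3 has the largest rise among the labelled genes, at 6.66, and Hdc, at 1.52, lies among the most abundant genes called.

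The gene raised most was Socs3, the inhibitor that STAT3 signalling induces against its own receptors (gene at chr11:117966079-117970047, minus strand, mm10). It had 0.85, 0, 0 and 1.64 CPM with PBS and 64.7 and 81.5 CPM with IL1b (log2 fold change 6.66 ± 0.61, adjusted p = 1.77e-07). The PBS libraries were at or near 0, and both IL1b libraries stood far above them. Pim1, a survival kinase, had 0.85, 2.46, 4.33 and 1.64 CPM with PBS and 44.8 and 33.6 CPM with IL1b (log2 fold change 3.95 ± 0.58, adjusted p = 0.000189). Bcl3, an atypical IkB protein that binds NF-kB p50 and p52 in the nucleus, had 0.85, 1.23, 4.33 and 5.33 CPM with PBS and 49.2 and 38.9 CPM with IL1b (log2 fold change 3.70 ± 0.50, adjusted p = 6.01e-05). Bcl6, a transcriptional repressor, had 0, 0, 3.47 and 0.819 CPM with PBS and 16.4 and 23.6 CPM with IL1b (log2 fold change 3.93 ± 0.70, adjusted p = 0.00132). In each of these 4 genes the IL1b libraries lay well above the highest PBS library, and the call for Bcl6 was lost only without IL1b library 3 (adjusted p = 0.0559). Beyond them, Klf9, a Krüppel-like factor induced by glucocorticoid, had 28, 20.9, 18.2 and 13.9 CPM with PBS and 173 and 155 CPM with IL1b (log2 fold change 3.06 ± 0.22, adjusted p = 4.14e-09). Gpr65, a proton-sensing G protein-coupled receptor, had 87.5, 73.9, 76.3 and 75.4 CPM with PBS and 499 and 562 CPM with IL1b (log2 fold change 2.77 ± 0.16, adjusted p = 6.2e-11), and it had the smallest adjusted p of all genes tested. The 4 PBS values of Gpr65 lay within a narrow band, and both IL1b values were several times higher.

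The STAT motif was present in the promoters of 3 of these genes, and the sequences are shown so that the position of each match can be read. RefSeq promoters of build GRCm38.p6, which run from 250 bases before to 50 bases after a transcription start, were found for 15 of the 16 genes raised most. They were searched on both strands for the STAT motif TTCNNNGAA and for the consensus motifs of NF-kB and of the glucocorticoid receptor. The STAT motif was in the promoters of Socs3, Bcl6 and Klf9, the NF-kB motif in those of Bcl3 and Arl5b, and the glucocorticoid receptor motif in none. No matches of different motifs overlapped in the 5 promoters below, whose capitals mark the motif; the Bcl6 sequence is that of its second start, with 3 matches. The coordinates are chr11:117969317-117969616, minus strand for Socs3, chr16:23981234-23981533, minus strand for Bcl6, chr7:19822706-19823005, minus strand for Bcl3, chr19:23140976-23141275, plus strand for Klf9 and chr2:15055070-15055369, plus strand for Arl5b.
Socs3: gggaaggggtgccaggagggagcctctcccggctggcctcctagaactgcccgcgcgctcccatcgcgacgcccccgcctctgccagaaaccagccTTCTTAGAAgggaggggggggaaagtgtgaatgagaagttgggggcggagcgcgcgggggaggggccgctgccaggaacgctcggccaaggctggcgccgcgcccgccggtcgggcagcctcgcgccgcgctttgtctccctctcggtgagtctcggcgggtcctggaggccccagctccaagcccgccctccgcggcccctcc
Bcl6: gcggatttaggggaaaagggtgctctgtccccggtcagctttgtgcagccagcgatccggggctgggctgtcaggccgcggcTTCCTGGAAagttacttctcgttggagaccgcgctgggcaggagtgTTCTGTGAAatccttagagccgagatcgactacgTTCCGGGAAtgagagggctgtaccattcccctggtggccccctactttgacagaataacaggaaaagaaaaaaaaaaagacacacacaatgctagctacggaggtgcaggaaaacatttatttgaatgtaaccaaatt
Bcl3: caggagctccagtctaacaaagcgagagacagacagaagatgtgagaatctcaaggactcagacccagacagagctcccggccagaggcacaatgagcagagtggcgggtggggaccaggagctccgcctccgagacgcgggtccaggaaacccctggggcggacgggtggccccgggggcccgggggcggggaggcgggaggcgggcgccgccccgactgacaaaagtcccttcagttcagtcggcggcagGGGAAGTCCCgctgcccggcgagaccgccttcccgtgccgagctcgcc
Klf9: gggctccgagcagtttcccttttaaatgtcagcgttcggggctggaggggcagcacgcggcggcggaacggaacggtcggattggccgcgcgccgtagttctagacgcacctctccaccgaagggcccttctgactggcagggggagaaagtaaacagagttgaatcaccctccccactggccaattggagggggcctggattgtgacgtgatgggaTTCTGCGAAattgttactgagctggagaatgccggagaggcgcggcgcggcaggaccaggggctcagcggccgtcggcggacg
Arl5b: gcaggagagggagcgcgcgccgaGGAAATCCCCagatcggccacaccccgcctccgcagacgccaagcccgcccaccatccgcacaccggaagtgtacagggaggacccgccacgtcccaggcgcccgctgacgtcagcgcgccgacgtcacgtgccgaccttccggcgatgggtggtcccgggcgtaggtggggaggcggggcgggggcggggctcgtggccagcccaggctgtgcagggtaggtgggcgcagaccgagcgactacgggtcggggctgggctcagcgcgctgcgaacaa

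Over all 32851 promoters of the table, 8.3% held the STAT motif, 8.46% the NF-kB motif and 0.222% the glucocorticoid receptor motif. Of the 198 promoters of 149 raised genes found in the table, 18 (9.09%) held the STAT motif, 25 (12.6%) the NF-kB motif and 2 (1.01%) the glucocorticoid receptor motif. Among the 10573 promoters of genes tested, the shares were 6.85%, 9.95% and 0.0946%. These shares are per promoter, while the genes named above count a match at any of their starts, so they cannot be compared directly. Both are descriptions of letters in a short window and were not tested.

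The other genes raised most, among called genes that averaged 20 CPM or more in the higher group, span several functions. Rhobtb1 had 6.8, 8.62, 1.3 and 3.69 CPM with PBS and 35.4 and 32.1 CPM with IL1b (log2 fold change 2.80 ± 0.47, adjusted p = 0.00072), and lost its call in the fit with the replicate number as a block (adjusted p = 0.149). Ccnj, which encodes cyclin J, had 10.2, 3.08, 5.63 and 10.7 CPM with PBS and 52.6 and 45.2 CPM with IL1b (log2 fold change 2.72 ± 0.41, adjusted p = 0.000258). Arl5b, a small GTPase of the Arf family, had 45.9, 48, 45.5 and 36.1 CPM with PBS and 215 and 264 CPM with IL1b (log2 fold change 2.46 ± 0.18, adjusted p = 4.14e-09). For all 3, the IL1b libraries were above every PBS library. Mthfd2, a mitochondrial folate enzyme, had 15.3, 23.4, 34.2 and 25.4 CPM with PBS and 66.4 and 193 CPM with IL1b (log2 fold change 2.38 ± 0.31, adjusted p = 3.57e-05), so the 2 IL1b libraries differed widely from each other. Tha1, threonine aldolase, had 7.65, 17.2, 20.8 and 11.9 CPM with PBS and 90.6 and 54.1 CPM with IL1b (log2 fold change 2.27 ± 0.32, adjusted p = 8.83e-05). Pim2 rose with 2.55, 0.615, 6.5 and 6.56 CPM with PBS and 15.5 and 29.4 CPM with IL1b (log2 fold change 2.37 ± 0.51, adjusted p = 0.00933). The remaining genes of the 16 were Rubcnl (log2 fold change 2.25), A330023F24Rik (2.75), E230001N04Rik (3.13) and Gm22146 (3.54). A330023F24Rik lost its call in 8 of 13 alternatives and Rubcnl in 5, both of them when either IL1b library was left out, and E230001N04Rik lost it without IL1b library 3. Gm22146 (chr17:28446861-28447148, plus strand) lies inside Fkbp5 (chr17:28399094-28517527, minus strand) on the opposite strand, and Fkbp5 itself rose by 1.26. The strand setting of the counting is not given in the sources used here, so the reads of the 2 genes cannot be told apart.

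**Figure D2:**
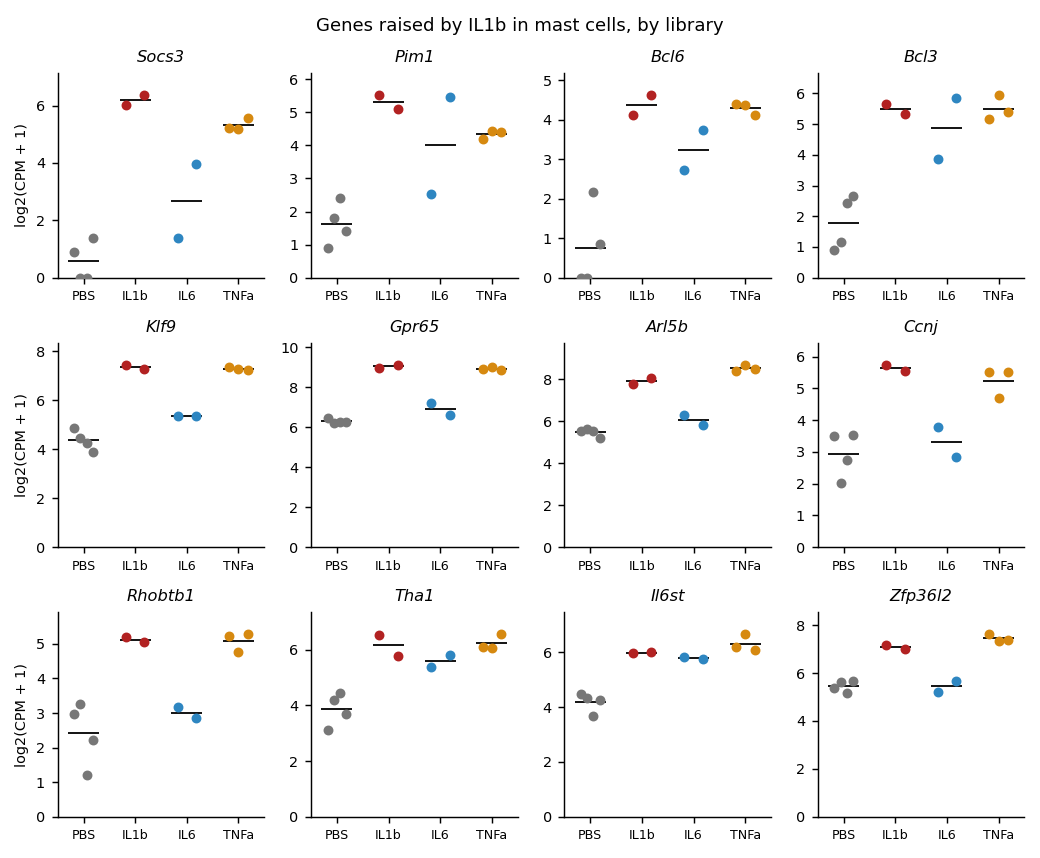
Levels of 12 genes raised by IL1b in mast cells, by library. The y axis of each panel is log2(CPM + 1), each point is 1 library and the bar is the group mean of 4 PBS, 2 IL1b, 2 IL6 and 3 TNFa libraries. The IL1b points lie above all PBS points in each panel, and the 2 IL6 points of Socs3, Pim1 and Bcl3 lie far apart.

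Targets and feedback regulators of STAT3, which gp130 cytokines such as interleukin 6 activate, were raised more than any other of the 25 main lists by share. Of 22 tested members of that list, 11 rose and none fell, and the median log2 fold change was 1.34. Over all genes tested, 1.77% rose and 0.425% fell. The 25 main lists were written with earlier results of these data known. Besides Socs3, Bcl3, Pim1, Bcl6 and Pim2, the members of the STAT3 list that rose were Batf, Myc, Sbno2, Il4ra, Stat3 and Arid5a. Arid5a lost its call in 9 of 13 alternatives, Stat3 in 5, Il4ra in 4, and Myc and Pim2 in 2 each. Batf, a transcription factor of the AP-1 family, had 37.4, 40.0, 43.3 and 49.6 CPM with PBS and 103 and 94.1 CPM with IL1b (log2 fold change 1.19 ± 0.22, adjusted p = 0.00192). Myc, a growth regulator, had 16.1, 18.5, 24.3 and 20.5 CPM with PBS and 82.8 and 57.3 CPM with IL1b (log2 fold change 1.79 ± 0.33, adjusted p = 0.00209). Stat3 itself had 67.1, 88, 113 and 105 CPM with PBS and 177 and 160.3 CPM with IL1b (log2 fold change 0.84 ± 0.21, adjusted p = 0.0279). The IL1b libraries were above every PBS library in all 3. Of this list, 7 members were called without IL1b library 1 and 5 without IL1b library 3. Il6st, the gp130 chain that receptors for interleukin 6 share, had 21.2, 19.1, 11.7 and 18.4 CPM with PBS and 62.1 and 63.6 CPM with IL1b (log2 fold change 1.86 ± 0.27, adjusted p = 0.000179). Il4ra, the interleukin 4 receptor chain, had 51, 106, 91.9 and 118 CPM with PBS and 201 and 168 CPM with IL1b (log2 fold change 0.98 ± 0.24, adjusted p = 0.0233). In the SOCS family, Socs1 rose together with Socs3, with 6.8, 8, 14.3 and 20.9 CPM with PBS and 43.1 and 33.6 CPM with IL1b (log2 fold change 1.55 ± 0.40, adjusted p = 0.0415), and 6 further members did not pass the test. Socs1 lost its call in 7 of 13 alternatives, among them those without either IL1b library. Socs2 had 422, 451, 462 and 451 CPM with PBS and 280.3 and 299.6 CPM with IL1b (log2 fold change -0.62 ± 0.17, adjusted p = 0.0502) and did not pass the test. Its IL1b libraries lay below every PBS library, but 21.4% of all genes tested had a gap between the groups in either direction.

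Of 24 tested NF-kB targets and feedback genes, 4 rose and none fell, with a list median of 0.34. Over all genes tested, 1.77% rose and 0.425% fell. Nfkb1, which encodes p105/p50, had 391, 375, 354 and 394 CPM with PBS and 712 and 831 CPM with IL1b (log2 fold change 1.03 ± 0.13, adjusted p = 2.57e-05). Nfkbia, the inhibitor IkBa, had 87.5, 69.5, 93.6 and 106 CPM with PBS and 274 and 326 CPM with IL1b (log2 fold change 1.75 ± 0.41, adjusted p = 0.0199). Birc3, an inhibitor of apoptosis, had 52.7, 137, 109 and 104 CPM with PBS and 198 and 254 CPM with IL1b (log2 fold change 1.16 ± 0.22, adjusted p = 0.00335). Each was higher in both IL1b libraries than in any PBS library. Birc3 was not called without IL1b library 3. Nfkbia lost its call with DESeq2, without PBS library 3 and without either IL1b library; its spread in the fit includes IL6 library 3, whose level stood apart from that of IL6 library 1 (108 and 1076 CPM in IL6 libraries 1 and 3). Tnfaip3 (log2 fold change 1.07, adjusted p = 0.224) and Nfkb2 (1.07, adjusted p = 0.0502) did not pass. Tnf was at a log2 fold change of -0.13 and Icam1 at 0.45, both far from the threshold. The chemokines Cxcl1 and Cxcl2 and the enzyme Ptgs2, common early targets of the pathway, were too low to be tested.

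Glucocorticoid-responsive genes were the other list with a large share raised: 7 of 17 tested members rose, none fell, and the median was 1.26. Over all genes tested, 1.77% rose and 0.425% fell. Next to Klf9, the raised members were Sgk1, Tsc22d3, Mt1, Fkbp5, Cdkn1a and Per1. Sgk1, a serum- and glucocorticoid-regulated kinase, had 220.1, 174, 163 and 141 CPM with PBS and 500.2 and 488 CPM with IL1b (log2 fold change 1.51 ± 0.16, adjusted p = 2.37e-06). Tsc22d3, which encodes the leucine zipper protein GILZ, had 485, 516, 501 and 708 CPM with PBS and 1163 and 1308 CPM with IL1b (log2 fold change 1.16 ± 0.14, adjusted p = 7.55e-06). Fkbp5, a chaperone of the glucocorticoid receptor, had 66.3, 89.2, 64.6 and 90.1 CPM with PBS and 194 and 180.3 CPM with IL1b (log2 fold change 1.26 ± 0.19, adjusted p = 0.000204). Both IL1b libraries exceeded all PBS libraries in these 3 genes. Mt1, a metallothionein, had 155, 181, 169.9 and 143 CPM with PBS and 416 and 439 CPM with IL1b (log2 fold change 1.40 ± 0.17, adjusted p = 8.88e-06), and Mt2 had 1.7, 2.46, 6.5 and 4.92 CPM with PBS and 17.2 and 16.3 CPM with IL1b (log2 fold change 2.00 ± 0.56, adjusted p = 0.0596). Per1, a clock gene that glucocorticoid also induces, had 18.7, 19.1, 13.9 and 22.9 CPM with PBS and 52.6 and 50.5 CPM with IL1b (log2 fold change 1.46 ± 0.33, adjusted p = 0.0131). Per1 was not called when either IL1b library was left out, and Cdkn1a was not called without IL1b library 3. Of this list, 6 members were called without IL1b library 1 and 5 without IL1b library 3. Dusp1 (log2 fold change 0.09) and Zfp36 (0.26), which that hormone raises in many cells, were not called. Hormone levels are not analysed here.

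**Figure D3:**
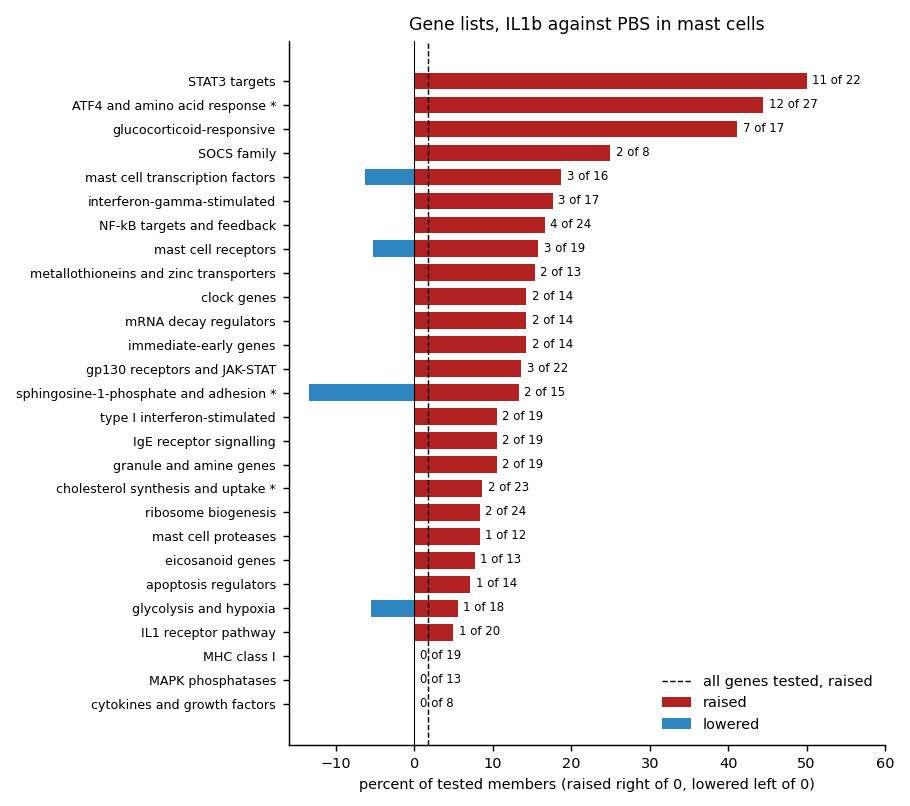
Share of tested members raised (right of 0) or lowered (left of 0) in each gene list with at least 5 tested members, IL1b against PBS in mast cells. The x axis is the percent of tested members, the numbers give raised members of tested members, the dashed line is the share of all genes that was raised (1.77%), and an asterisk marks the 3 lists written after values were seen. The lists without an asterisk were written with earlier results of these data known. STAT3 targets, the added list of ATF4 genes and glucocorticoid-responsive genes stand at the top.

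The mast cell program itself changed in a few genes. Most of these rose, as did 187 of the 232 genes called among the 10591 tested. The median log2 fold changes of the mast cell lists lay between -0.07 and 0.13. Hdc, histidine decarboxylase, which makes histamine, had 3241, 3778, 3921 and 2769 CPM with PBS and 9344 and 10333 CPM with IL1b (log2 fold change 1.52 ± 0.13, adjusted p = 5.13e-08; gene at chr2:126593667-126619299, minus strand, mm10). Tph1, tryptophan hydroxylase, the first step to serotonin, had 2913, 3064, 4312 and 3763 CPM with PBS and 6971 and 6148 CPM with IL1b (log2 fold change 0.90 ± 0.13, adjusted p = 0.000156). Both amine-forming enzymes were higher in the 2 IL1b libraries than in any PBS library, and these 2 were the only ones of 19 tested granule and amine genes called; the vesicular amine transporter Slc18a2 was at -0.24 and serglycin, Srgn, at 0.26. Among 12 tested proteases, Tpsab1, a tryptase, had 1671, 1694, 1800.3 and 1793 CPM with PBS and 2522 and 3289 CPM with IL1b (log2 fold change 0.74 ± 0.15, adjusted p = 0.0043), and it was not called without IL1b library 3 (adjusted p = 0.271). The chymase Cma1 had 92451, 87128, 84994 and 85558 CPM with PBS and 90904 and 88716 CPM with IL1b and the carboxypeptidase Cpa3 had 48944, 48946, 42838 and 41044 CPM with PBS and 52373 and 46017 CPM with IL1b. Their groups overlapped, and the log2 fold changes of 0.04 and 0.11 did not pass the test.

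Among 19 tested mast cell receptors, 3 rose and 1 fell, where 1.77% of all genes tested rose and 0.425% fell. Ptger4, a receptor for prostaglandin E2, had 6.8, 5.54, 10.4 and 14.8 CPM with PBS and 50.9 and 35.7 CPM with IL1b (log2 fold change 2.13 ± 0.37, adjusted p = 0.00107). Fcer1a, the IgE-binding chain, had 3873, 4288, 3774 and 3891 CPM with PBS and 6298 and 5061 CPM with IL1b (log2 fold change 0.52 ± 0.11, adjusted p = 0.00952), with its call lost without IL1b library 1 and under the replicate block. Il1rl1 is described above. Fcgr3, a low-affinity IgG receptor, fell, with 540.5, 624, 510.0 and 551 CPM with PBS and 392 and 390.0 CPM with IL1b (log2 fold change -0.51 ± 0.14, adjusted p = 0.0464), and lost its call in 8 of 13 alternatives. Kit was level, with 4316, 5060.5, 4433 and 5066 CPM with PBS and 4435 and 4569.7 CPM with IL1b (log2 fold change -0.07). The other chains of the IgE receptor, Ms4a2 and Fcer1g, were at 0.08 and -0.02. Downstream of that receptor, 2 of 19 tested genes rose: Lyn, the kinase that starts the signal, with 665, 561, 559.8 and 526 CPM with PBS and 977 and 869.8 CPM with IL1b (log2 fold change 0.68 ± 0.14, adjusted p = 0.00707), and Lcp2, the adaptor SLP-76, with 469, 424, 383 and 362 CPM with PBS and 634 and 656 CPM with IL1b (log2 fold change 0.66 ± 0.13, adjusted p = 0.00454). Both kept a clear gap between the groups and were not called when either IL1b library was left out.

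Of 16 tested mast cell transcription factors, 3 rose and 1 fell, where 1.77% of all genes tested rose and 0.425% fell. Gata1, a lineage factor that mast cells share with the erythroid line, had 175, 121, 122 and 190.1 CPM with PBS and 325 and 337 CPM with IL1b (log2 fold change 1.13 ± 0.17, adjusted p = 0.000322). Bhlhe40 had 12.7, 31.4, 50.3 and 62.7 CPM with PBS and 138 and 122 CPM with IL1b (log2 fold change 1.67 ± 0.31, adjusted p = 0.00238), so its PBS values differed widely among themselves. Mitf, the melanocyte and mast cell factor, had 166, 202, 161 and 138 CPM with PBS and 279 and 259 CPM with IL1b (log2 fold change 0.69 ± 0.18, adjusted p = 0.0421) and lost its call in 7 of 13 alternatives. Lyl1, a basic helix-loop-helix factor, fell, with 89.2, 74.5, 78.9 and 80.7 CPM with PBS and 41.4 and 36.3 CPM with IL1b (log2 fold change -1.06 ± 0.24, adjusted p = 0.0142). The call for Lyl1 was lost in 3 of 13 alternatives. Gata2 had 731, 713, 658 and 714 CPM with PBS and 670.1 and 664 CPM with IL1b (log2 fold change -0.08, adjusted p = 0.902).

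**Figure D4:**
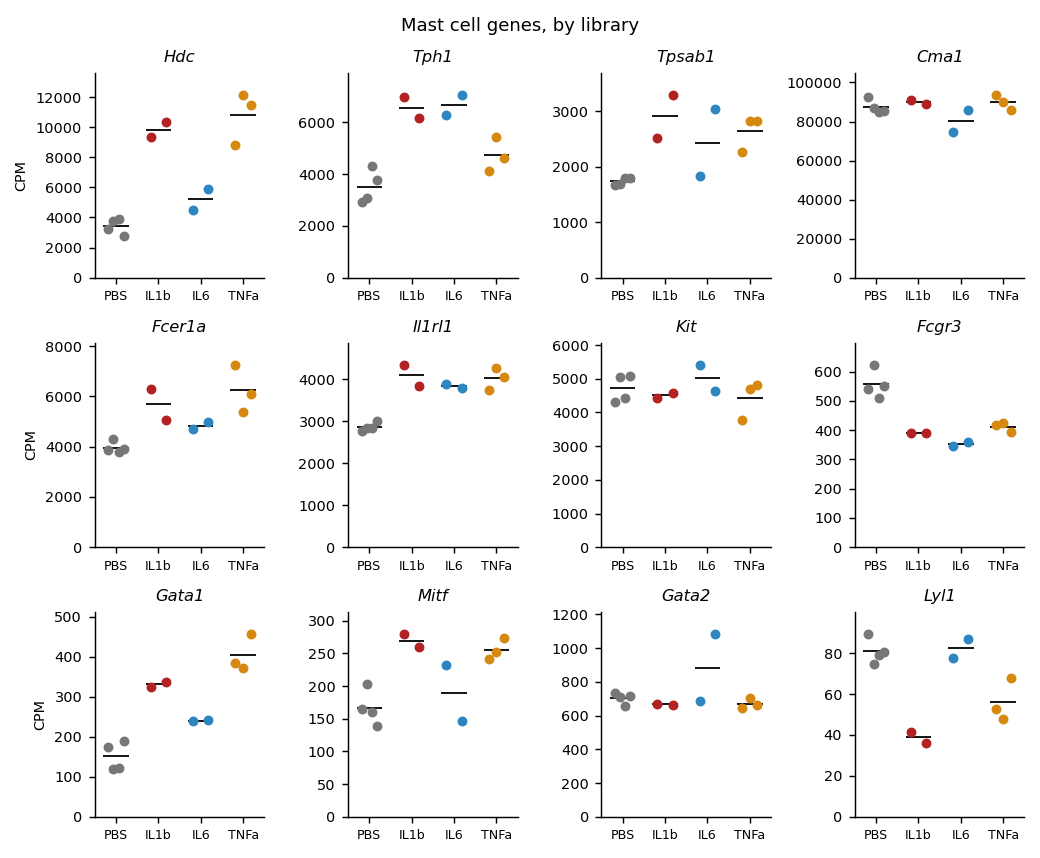
Levels of 12 mast cell genes by library. The y axis of each panel is CPM from 0, each point is 1 library and the bar is the group mean. Hdc, Tph1 and Gata1 lie higher in both IL1b libraries than in every PBS library, Cma1, Kit and Gata2 overlap or lie close to the PBS range, and Fcgr3 and Lyl1 lie lower.

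Few of the secreted mediators could be tested: 8 of 24 listed cytokines and growth factors and 3 of 18 listed chemokines. Over all genes tested, 1.77% rose and 0.425% fell, so 0 calls among 8 genes does not set that list apart. None of 8 tested cytokines and growth factors was called; Il4 had 54.4, 62.2, 68 and 53.3 CPM with PBS and 93.1 and 82 CPM with IL1b (log2 fold change 0.55 ± 0.24, adjusted p = 0.341), and Lif, a gp130 cytokine, had at most 2.59 and 6.83 CPM with IL1b (adjusted p = 0.109). Of 3 tested chemokines, Ccl2, which attracts monocytes, rose, with 946, 684, 876 and 795 CPM with PBS and 1352 and 1357 CPM with IL1b (log2 fold change 0.72 ± 0.13, adjusted p = 0.00159). Ccl7 had 51.8, 56.6, 98.8 and 48.8 CPM with PBS and 199 and 65.7 CPM with IL1b (adjusted p = 0.272), so that 1 IL1b library was high and the other lay inside the PBS range. Of 13 tested eicosanoid genes only Ptger4 was called: the lipoxygenase Alox5 was at -0.25 and the prostaglandin D synthase Hpgds at -0.38. No member of the 13 tested MAP kinase phosphatases was called. Of 14 tested immediate-early genes, Myc and Egr2 rose; Egr2 rests on IL1b library 3, with 0, 1.85, 3.03 and 0 CPM with PBS and 4.31 and 33.6 CPM with IL1b (log2 fold change 3.83 ± 1.03, adjusted p = 0.04999). Jun had 14.4, 971, 8.23 and 8.19 CPM with PBS and 5.17 and 6.83 CPM with IL1b (adjusted p = 0.0915), with PBS library 3 far above all others.

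A further 3 gene groups outside the main lists were written down after the values had been seen, and are given as descriptions. In the group of ATF4 and amino acid response genes, 12 of 27 tested members rose, none fell, and the median log2 fold change was 0.91. Over all genes tested, 1.77% rose and 0.425% fell. Asns, asparagine synthetase, had 22.9, 23.4, 29.9 and 25 CPM with PBS and 84.5 and 122 CPM with IL1b (log2 fold change 2.03 ± 0.33, adjusted p = 0.000591). Aars, alanyl-tRNA synthetase, had 68, 72, 59.8 and 57 CPM with PBS and 119.9 and 242 CPM with IL1b (log2 fold change 1.52 ± 0.22, adjusted p = 0.000189). Trib3, a pseudokinase, had 15.3, 4.92, 9.97 and 8.6 CPM with PBS and 22.4 and 48.4 CPM with IL1b (log2 fold change 1.91 ± 0.45, adjusted p = 0.021). In each of the 3, library 3 was the higher of the 2 IL1b libraries, and without it none of the 27 was called, while 10 were called without IL1b library 1. In the cholesterol group, 2 of 23 rose: Cyp51, with 80.7, 62.8, 88.8 and 64.3 CPM with PBS and 248 and 250.2 CPM with IL1b (log2 fold change 1.75 ± 0.19, adjusted p = 3.1e-06), and Msmo1 (1.17, adjusted p = 0.0157). Msmo1 lost its call in 5 of 13 alternatives. In the group of sphingosine-1-phosphate and adhesion genes, Cd69, a membrane protein that holds back the receptor S1pr1, had 195, 142, 88.4 and 159 CPM with PBS and 549 and 423 CPM with IL1b (log2 fold change 1.74 ± 0.26, adjusted p = 0.000243), and Ackr1, a chemokine-binding receptor, had 17.8, 14.2, 16.9 and 18.8 CPM with PBS and 55.2 and 72 CPM with IL1b (log2 fold change 1.91 ± 0.30, adjusted p = 0.000338). S1pr1 had 78.2, 36.3, 97.9 and 103 CPM with PBS and 28.5 and 32.6 CPM with IL1b and S1pr2 had 40.8, 72, 49.4 and 56.5 CPM with PBS and 30.2 and 16.8 CPM with IL1b, and both fell (adjusted p = 0.0389 and 0.0351), losing the call in 7 and 5 of 13 alternatives.

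Interferon, survival and metabolic lists moved in single genes, where 1.77% of all genes tested rose and 0.425% fell. Of 17 tested interferon-gamma-stimulated genes, Irgm1, Socs1 and Gbp3 rose; Irgm1, an immunity-related GTPase, had 163, 142, 179 and 146 CPM with PBS and 405 and 246 CPM with IL1b (log2 fold change 1.04 ± 0.18, adjusted p = 0.00104), and the 2 IL1b libraries differed. Irgm1 was not called without IL1b library 1 or with the replicate block, and Gbp3 lost its call in 9 of 13 alternatives, among them those without either IL1b library. Of 19 tested type I interferon-stimulated genes, Rtp4 (1.80) and Irf9 (0.75) rose, and neither was called when either IL1b library was left out. No gene of 19 tested in MHC class I presentation was called. Bcl2l1, which encodes the survival protein Bcl-xL, was the only one of 14 tested apoptosis regulators to rise, with 17.8, 32.6, 43.3 and 32 CPM with PBS and 99.2 and 131 CPM with IL1b (log2 fold change 1.85 ± 0.30, adjusted p = 0.000591). Zfp36l2, an mRNA decay factor, had 40.8, 48, 35.1 and 50.4 CPM with PBS and 142 and 128 CPM with IL1b (log2 fold change 1.63 ± 0.21, adjusted p = 2.5e-05), and the groups were well separated. Ldha rose (0.59, adjusted p = 0.00107) and the glucose transporter Slc2a3 fell, with 156, 161, 168 and 175 CPM with PBS and 92.3 and 78.8 CPM with IL1b (log2 fold change -0.96 ± 0.19, adjusted p = 0.00554). Bcl2l1, Ldha and Slc2a3 were not called without IL1b library 3, and Slc2a3 was also not called with the replicate block. In the ribosome biogenesis list 2 of 24 rose, Myc and Ddx21, and each lost its call in 2 of 13 alternatives.

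The lowered genes were fewer than the raised ones. The 10 lowered most are ranked among called genes that averaged 20 CPM or more in the higher group; below that level, Rrad and Nek1 had larger falls (-4.69 and -3.86), named after their values were seen. Bbs10, a chaperonin-like ciliary gene, had 35.7, 91.1, 14.7 and 17.6 CPM with PBS and 7.76 and 4.2 CPM with IL1b (log2 fold change -2.76 ± 0.70, adjusted p = 0.0328), with PBS library 3 much higher than the others, and lost its call without that library. Sertad3, a transcriptional coregulator, had 36.5, 19.7, 39.9 and 23.4 CPM with PBS and 6.9 and 2.63 CPM with IL1b (log2 fold change -2.72 ± 0.53, adjusted p = 0.00339). Far2, a fatty acyl-CoA reductase, had 79, 62.2, 65.9 and 69.2 CPM with PBS and 19 and 19.97 CPM with IL1b (log2 fold change -1.82 ± 0.33, adjusted p = 0.00199). St8sia4, a polysialyltransferase, had 50.1, 41.2, 38.6 and 36.5 CPM with PBS and 13.8 and 11.6 CPM with IL1b (log2 fold change -1.71 ± 0.37, adjusted p = 0.00927). In Far2 and St8sia4 the PBS values lay near each other. The others of the 10 lowered most were Xrcc2 (-2.46), Amot (-2.35), 2610035D17Rik (-2.30), Chek2 (-1.81), Fmo5 (-1.69) and Tbc1d2b (-1.65). Each of these 10 genes lost its call in at least 1 alternative. Xrcc2 and the kinase Chek2 act in DNA repair and its checkpoint.

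In the direct comparison with TNFa, which does not use the PBS libraries, no gene of 10591 (0%) passed the test with edgeR, although 490 had an unadjusted p under 0.05 and DESeq2 called 11. The smallest adjusted p was 0.0635. TNFa acts through Tnfrsf1a and Tnfrsf1b: Tnfrsf1a had 0 counts in all PBS, IL1b and TNFa libraries of mast cells, and Tnfrsf1b had 15 to 79 counts. Of the leading genes, Socs3 and Pim1 were higher with IL1b than with TNFa in every library. Socs3 had 64.7 and 81.5 CPM with IL1b and 36.5, 35.1 and 46.8 CPM with TNFa; Pim1 had 44.8 and 33.6 CPM and 17.3, 20.7 and 20.4 CPM. Klf9 had 173 and 155 CPM with IL1b and 160.5, 153 and 151 CPM with TNFa, and the direct difference in log2 was 0.09 ± 0.22. Hdc had 9344 and 10333 CPM and 8813, 12129.7 and 11442 CPM, a difference of -0.13 ± 0.14. Arl5b had 215 and 264 CPM with IL1b and 339, 411 and 351 CPM with TNFa, which did not overlap, and a difference of -0.62 ± 0.19. None of these differences passed the test after adjustment, so the gaps between the libraries in Socs3, Pim1 and Arl5b only describe their values. The count of 0 does not show that the cytokines act alike.

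Against IL6, with the same IL1b libraries, 26 genes differed (0.245%), 24 (0.227%) higher and 2 (0.0189%) lower with IL1b. Socs3 had 1.6 and 14.7 CPM with IL6 (direct log2 difference 3.02 ± 0.57, adjusted p = 0.0112). Klf9 had 40.1 and 39.5 CPM with IL6 (2.04 ± 0.26, adjusted p = 0.000219). Gpr65 had 149 and 97.5 CPM with IL6 (2.12 ± 0.20, adjusted p = 1.33e-06). All 3 stood higher with IL1b in every library. Arl5b (1.87 ± 0.22, adjusted p = 6.47e-05), Ccnj (2.41 ± 0.51, adjusted p = 0.0432), Zfp36l2 (1.62 ± 0.25, adjusted p = 0.00162), Hdc (0.92 ± 0.16, adjusted p = 0.00412), Lyn (1.07 ± 0.17, adjusted p = 0.00162) and Irgm1 (1.37 ± 0.22, adjusted p = 0.00189) were also higher. Tph1 was not among them, with 6266 and 7045 CPM with IL6 against 6971 and 6148 CPM with IL1b. Lhfp, a tetraspan membrane protein, was lower with IL1b, at 214 and 166 CPM against 525 and 322 CPM with IL6 (-1.16 ± 0.21, adjusted p = 0.00992). Pim1 (4.81 and 43.3 CPM with IL6), Bcl3 (13.6 and 57.1 CPM) and Nfkbia (108 and 1076 CPM) were high in IL6 library 3 and not in IL6 library 1, so the IL6 group is spread widely, and the part of the T cell markers of library 3 in this was not tested. The number of genes called was 21 without IL6 library 3 and 35 without IL6 library 1.

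The response to IL1b differed between mast cells and peritoneal macrophages in 830 of 14687 genes tested (5.65%), by a test of the difference itself in which each cell type had its own PBS libraries; 340 (2.31%) were higher and 490 (3.34%) lower in mast cells. Several genes raised most in mast cells moved less in macrophages. Gpr65 changed by 2.78 ± 0.19 in mast cells and 0.19 ± 0.17 in macrophages (difference 2.58 ± 0.26, adjusted p = 2.54e-08). Klf9 changed by 3.07 ± 0.19 in mast cells and 1.34 ± 0.14 in macrophages (difference 1.74 ± 0.25, adjusted p = 1.49e-05). Hdc changed by 1.53 ± 0.18 in mast cells and -0.11 ± 0.16 in macrophages (difference 1.64 ± 0.24, adjusted p = 2.71e-05), with 147 ± 15 CPM with PBS and 137 ± 43.5 CPM with IL1b in macrophages (SD, n = 5 and 3). Socs3 rose in both cell types, by 6.73 ± 0.48 in mast cells and 3.86 ± 0.18 in macrophages (difference 2.87 ± 0.67, adjusted p = 0.00668), from a far higher level in macrophages, 141 ± 38.1 CPM with PBS and 2045 ± 121 CPM with IL1b. Rhobtb1 changed in opposite directions, by 2.83 ± 0.51 in mast cells and -2.66 ± 0.45 in macrophages (difference 5.49 ± 0.67, adjusted p = 1.22e-06). Bcl6 was at 3.94 ± 0.51 in mast cells and -0.62 ± 0.27 in macrophages (difference 4.56 ± 0.58, adjusted p = 2.27e-06), and Ptger4 at 2.10 ± 0.35 in mast cells and -0.71 ± 0.23 in macrophages (difference 2.81 ± 0.43, adjusted p = 3.65e-05). Bcl3 did not differ beyond its error, at 3.68 ± 0.45 in mast cells and 3.72 ± 0.29 in macrophages (difference -0.04 ± 0.66, adjusted p = 1).

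Other genes moved more in macrophages. Socs2 changed by -0.62 ± 0.19 in mast cells and 5.66 ± 0.29 in macrophages (difference -6.28 ± 0.37, adjusted p = 4.52e-13), and Cish, another SOCS family member, by 0.72 ± 0.36 in mast cells and 6.93 ± 0.34 in macrophages (difference -6.21 ± 0.53, adjusted p = 1.21e-09). Irak3, an inhibitor of the IL1 receptor kinases, changed by -1.004 ± 0.22 in mast cells and 2.64 ± 0.14 in macrophages (difference -3.64 ± 0.26, adjusted p = 3.43e-11), with 65.6 ± 8.42 CPM with PBS and 409 ± 51.3 CPM with IL1b in macrophages (SD, n = 5 and 3). Ccl7 changed by 1.01 ± 0.43 in mast cells and 7.52 ± 0.58 in macrophages (difference -6.51 ± 0.83, adjusted p = 2.24e-06), and Ccl2 by 0.72 ± 0.47 in mast cells and 3.80 ± 0.48 in macrophages (difference -3.08 ± 0.71, adjusted p = 0.00612). The metallothionein Mt1 changed by 1.41 ± 0.17 in mast cells and 3.24 ± 0.15 in macrophages (difference -1.83 ± 0.24, adjusted p = 2.7e-06), and Mt2 by 1.95 ± 0.47 in mast cells and 8.07 ± 0.30 in macrophages (difference -6.12 ± 0.65, adjusted p = 8.11e-08). In the fit of both cell types, Ccl2 already stood at 716 ± 95.9 CPM with PBS in mast cells (SD, n = 4). In macrophages Ccl2 had 6.41 ± 11.8 CPM with PBS and 86.1 ± 15.8 CPM with IL1b (SD, n = 5 and 3). The 5 largest differences in each direction, among genes that averaged 20 CPM or more in a group and whose IL1b and PBS libraries did not overlap in at least 1 of the 2 cell types, were those of Rasgrp3 (7.37), Gm27252 (6.95), Ldlrad3 (6.89), 9130008F23Rik (6.397) and Rgs1 (6.18) on the higher side and Sphk1 (-10.57), Phldb1 (-9.50), Vcan (-8.11), Sdc4 (-7.46) and Lacc1 (-7.20) on the lower. Apart from Rgs1 and Sdc4, these had a mast cell group with all libraries at 0, so the size of the fitted difference depends on the prior count. Rgs1, a regulator of G protein signalling, had 56.7 ± 115 CPM with PBS and 1.24 ± 0.388 CPM with IL1b in macrophages, and Sdc4, a syndecan, had 10.5 ± 5.73 CPM with PBS and 1236 ± 403 CPM with IL1b (SD, n = 5 and 3). The number of differing genes was 514 with the replicate number as a block and 433 without IL1b library 3 of mast cells.

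In the 12 other cell types of the screen with IL1b libraries, each fitted with its own PBS libraries, 38 of the 187 genes raised in mast cells were raised in 6 or more types (20.3%) and 43 in none (23%), against 1.1% and 64.5% of the 10591 genes tested in mast cells. Of those 43, 6 were tested in no other type, Fcer1a, Tph1 and Tpsab1 among them, and 8 in only 1 to 3 types. Bcl3 and Gm22146 rose in all 12, Socs3 in 11, Pim1 in 10 and Tsc22d3 in 9. Klf9 rose in 2 others, MFpc (1.36) and Ly6C+ monocytes (1.83), and Arl5b in the same 2. Hdc rose in neutrophils (1.98), red pulp macrophages (6.11) and Ly6C+ monocytes (4.35). Sgk1, raised in mast cells, fell in 4 other types, with -1.45 in the monocytes and -1.56 in neutrophils, and rose in CD4 T cells (2.10). Bcl6 fell in 3 types, monocytes (-2.95) among them. Macrophages of the cavity raised 94 of the 187 genes (50.3% of the mast cell genes and 3.76% of those raised in macrophages), where 20.7% of all genes tested were raised; Ly6C+ monocytes raised 88 (47.1% of the mast cell genes and 3.61% of those raised in monocytes, where 19.4% of all genes tested were raised). CD8 T cells raised 21 (11.2% and 31.8%), where 0.474% of all genes tested were raised. Of the 45 lowered genes, 14 were lowered in no other type (31.1%) and 3 in 6 or more (6.67%), against 68.5% and 0.359% of all genes tested in mast cells. The cell types differ in depth and in numbers of libraries, and a missing call in another type does not show that the gene was steady there.

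**Figure D5:**
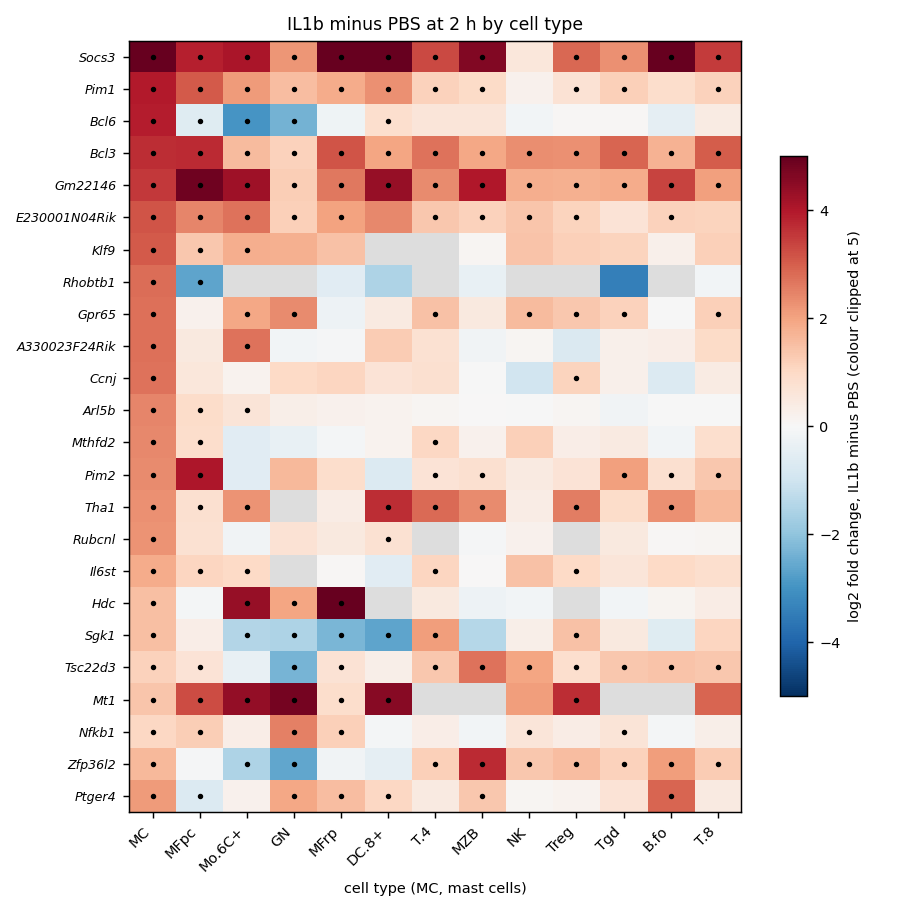
Response to IL1b of 24 genes in mast cells (MC, first column) and the 12 other cell types with IL1b libraries, columns after the first ordered by the number of genes raised. The colour is the log2 fold change of IL1b against PBS, clipped at 5, a dot marks an adjusted p under 0.05, and grey marks a gene not tested. Bcl3 and Gm22146 carry a dot in every column, and Rhobtb1 carries a dot for a rise in mast cells and for a fall in MFpc.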

How the data were processed

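The authors' deposited table gives raw counts per gene and library. STAR 2.7.3a, featureCounts and the mm10 build are the tools and build named in the submitters' processing notes. Per the labels' protocols, libraries were made by an ultra-low-input method from 1000 sorted cells. For featureCounts, neither the version nor the strand setting is given in the sources used here. Libraries of MC held 1094567 to 2627292 counts, which limits what can be said of genes of low level.

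Counts of the 11 MC libraries were fitted together in edgeR 4.0.16 (R 4.3.3) with TMM scaling, filterByExpr and the quasi-likelihood test, without covariates, and p-values were adjusted over all genes tested (threshold 0.05). CPM are TMM-scaled over the genes tested, marker sums over all genes. The SE was obtained as the absolute log2 fold change over the square root of F. The response in MC was set against that in MFpc in a fit of 25 libraries, and other cell types were fitted separately. Alternatives used DESeq2 1.42.0, other scalings, no filter, the replicate number as a block and fewer libraries. No 2 libraries of a group were identical.

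The members and lists were chosen with earlier results of these data known. Named genes were the IL1 receptor genes, the 16 raised most and 10 lowered most among called genes whose higher group averaged 20 CPM or more and whose libraries did not overlap, up to 4 per list with the smallest adjusted p, the 4 most abundant of each mast cell list, and the 5 largest differences in each direction of the other comparisons. Batf, Fkbp5, Aars, Asns, Trib3, Cyp51, Msmo1, Cd69, Ackr1, S1pr1, S1pr2, Rrad, Nek1 and list members given only with a log2 fold change were named after their values were seen. Gene positions are those of GENCODE on GRCm38. The fit was tested on simulated data.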

Additional observations from a re-analysis of the deposited data

Results flagged for a closer look

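In 9 of 130 named genes with a spread among the 4 PBS libraries of mast cells, 1 library stood far from the other 3; chance alone flags about 1 in 20 such groups. Jun had 971 CPM in PBS library 3 and 14.4, 971, 8.23 and 8.19 CPM over libraries 2 to 5. Srgn had 2681 CPM in PBS library 3, and its 4 values were 2472, 2681, 2438 and 2442 CPM. Tsc22d3 had 708 CPM in PBS library 5, the highest of 485, 516, 501 and 708 CPM. Ccl7 had 98.8 CPM in PBS library 4, and A330023F24Rik had 9.42 CPM in PBS library 5. Nolc1 had 39.1 CPM and Tapbp 221 CPM in PBS library 2, each the lowest of its group (39.1, 54.8, 52.9 and 53.7 CPM and 221, 273, 266 and 272 CPM), and Sigirr had 115 CPM there, the highest of 115, 65.2, 69.3 and 70.1 CPM. Ccl1 had 3.08 CPM in PBS library 3, the lowest of 5.1, 3.08, 4.77 and 4.92 CPM. Both IL1b libraries lay above the high PBS library in Srgn, Tsc22d3 and A330023F24Rik, and below it in Jun.

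The response to IL1b differed between mast cells and peritoneal macrophages in 830 genes by the test of the difference, and 21 of the named genes were higher and 30 lower in mast cells at an adjusted p under 0.05. The differences in log2 fold change, mast cells minus macrophages, were 7.37 for Rasgrp3, 6.95 for Gm27252, 6.89 for Ldlrad3, 6.397 for 9130008F23Rik, 6.18 for Rgs1, 5.49 for Rhobtb1, 4.56 for Bcl6, 2.87 for Socs3, 2.81 for Ptger4, 2.58 for Gpr65, 2.19 for Ccnj, 1.93 for Rtp4 and 1.84 for Gbp3. They were 1.74 for Klf9, 1.73 for Zfp36l2, 1.64 for Hdc, 1.61 for Dusp6, 1.57 for Arl5b, 1.53 for Mthfd2, 1.48 for Tha1 and 1.21 for Sgk1. On the lower side stood Sphk1 (-10.57), Phldb1 (-9.50), Vcan (-8.11), Sdc4 (-7.46), Lacc1 (-7.20), Ccl7 (-6.51), Socs2 (-6.28), Cish (-6.21), Mt2 (-6.12), Slc2a3 (-4.08), Irak3 (-3.64), Ccl2 (-3.08), Socs1 (-2.95) and Tbc1d2b (-2.82). Smaller differences were those of Sertad3 (-2.65), St8sia4 (-2.56), Far2 (-2.49), Tgfb1 (-2.30), H2-Q7 (-1.95), Mt1 (-1.83), Il4ra (-1.82), Zfp36l1 (-1.74), Ext1 (-1.06), Nolc1 (-1.01), Nop58 (-0.93), Ikzf1 (-0.87), Pfkp (-0.84), Lcp2 (-0.83), Fcgr3 (-0.65) and Srgn (-0.47).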

How the results depend on the processing

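Of 64 named genes called for IL1b against PBS, 21 kept their call in all 13 alternatives, Socs3, Pim1, Bcl3, Klf9, Gpr65, Hdc, Tph1, Sgk1 and Gata1 among them; 43 lost it in at least 1 and none changed sign. The count of 232 genes became 120 with the replicate block, 98 of them shared with the 232, and ranged from 73 to 227 when 1 IL1b or PBS library was left out, the lowest counts being those without IL1b library 3 (73) and IL1b library 1 (111). Leaving out an IL1b library leaves 1 IL1b sample, which is then assumed to vary like the other groups. IL1b and PBS libraries share only number 3 (correlation of their deviations 0.027), and the labels do not say that a number marks a mouse or batch. Against TNFa, 0 genes were called with any 1 IL1b or TNFa library left out, 4 without a filter and 11 with DESeq2. Without IL6 library 3, an alternative chosen after seeing the data, 255 genes were called against PBS, 2 against TNFa and 843 for the difference from MFpc. Against IL6, 65 were called without a filter, 101 with DESeq2, and 13 to 35 without 1 library. The difference from MFpc held in 514 genes with the replicate block and in 433 to 822 without 1 MC or MFpc library; DESeq2 gave 1157. The cause of these shifts was not tested.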
